A study of Mus musculus with 20 samples.

Results

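Interferon-stimulated genes are the genes that cells switch on after sensing interferon, and 44 of them, taken as a list of gene symbols, were followed here through the mature medullary epithelial cells of the mouse thymus with and without Aire. A gene was measured where a probe set of the array was annotated to its symbol and to no other, and where several were, the brightest one on average stood for the gene. By that rule 41 of the 44 genes were measured, among 18193 genes in all. Isg15, Oas1g and Ifi44 had no such probe set in the annotation used, so their expression is not analysed here.

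Type I and type III interferons act through the JAK kinases on a complex that holds STAT2 and IRF9 and binds interferon response elements in promoters, while interferon gamma acts mainly through GAS elements. The induced proteins include RNA-binding IFIT proteins, the OAS enzymes that activate RNase L, Mx and guanylate-binding GTPases, cytosolic RNA sensors and the factors IRF7, IRF9 and STAT2, which feed back on the pathway. Medullary thymic epithelial cells are known to express interferons and interferon-stimulated genes in the absence of infection.

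The study asked what Aire, the regulator that lets these cells transcribe genes of peripheral tissues, controls in different genetic backgrounds. Gene expression was measured on Affymetrix arrays, with 1 array for the thymus of each of 20 male mice aged 3 to 4.5 weeks. The groups were B6 mice wild-type (WT) for Aire (3 mice), B6 Aire knockout (KO) mice (3), BALB WT (4), BALB KO (4), NOD WT (3) and NOD KO (3). The cells were sorted by flow cytometry as negative for CD45, positive for the epithelial antibody G8.8, with intermediate Ly51 and high MHC class II, and the labels give neither the design of the Aire allele nor the number of backcrosses.

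Values are log2 of the RMA intensity, so a difference of 1 is a 2-fold change, and levels of different genes cannot be set against each other. Array medians lay between 86.3 and 90.9 intensity units. The Aire probe set read higher in the KO mice (means of 11.53 against 10.73 in B6, 10.95 against 10.25 in BALB and 11.91 against 11.19 in NOD), and since its position relative to the deleted part is not given it checks nothing. Markers of mature medullary epithelium averaged 10.51 to 11.20 in the 20 mice. This mean was higher in each KO mouse than in the WT mouse of its strain and number. It was 10.84 to 10.97 in NOD WT and 10.999 to 11.20 in NOD KO mice, without overlap. In B6 and BALB the genotypes overlapped. Of the 11 markers, 3 were higher and 0 lower in KO mice averaged over strains (limma adjusted p below 0.05). Aire is among the 3, so its probe set enters this mean. Ptprc, which encodes CD45, read 7.97 to 11.08 although the gate removed CD45-positive cells, and was highest in NOD WT 2 and NOD WT 3.

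The promoters of 6 genes are printed because they cover the largest falls in the KO mice (Ifit1bl1, Rsad2, Ifit3 and Ifit2), the 1 rise (Irf1) and an IFIT gene that did not pass the test (Ifit1, added after its values were seen). Each is the 250 bases before the start site, 5′ to 3′ on the gene's strand, from RefSeq on GRCm38.p6. Ifit1bl1, Ifit2 and Irf1 have 2 listed promoters each, and the first listed is printed. Capitals mark the core of an interferon response element, searched as GAAA, any 2 bases and GAAA on either strand (read as TTTC, 2 bases and TTTC when it lies on the other), in Ifit1bl1, Rsad2, Ifit3 and Ifit1. In Ifit2 and Irf1 they mark TTCNNNGAA, the palindromic GAS core.
Ifit1bl1, chr19:34601969-34602218, minus strand: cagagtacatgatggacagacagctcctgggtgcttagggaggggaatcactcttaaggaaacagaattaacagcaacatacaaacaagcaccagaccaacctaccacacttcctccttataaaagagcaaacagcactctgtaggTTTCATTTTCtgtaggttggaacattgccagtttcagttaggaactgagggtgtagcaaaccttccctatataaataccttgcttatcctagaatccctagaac
Rsad2, chr12:26456453-26456702, minus strand: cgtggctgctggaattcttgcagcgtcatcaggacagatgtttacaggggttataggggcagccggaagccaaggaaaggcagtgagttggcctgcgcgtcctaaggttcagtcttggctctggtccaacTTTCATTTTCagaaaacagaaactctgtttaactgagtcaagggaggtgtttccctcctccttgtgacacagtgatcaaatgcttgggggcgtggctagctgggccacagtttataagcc
Ifit3, chr19:34583279-34583528, plus strand: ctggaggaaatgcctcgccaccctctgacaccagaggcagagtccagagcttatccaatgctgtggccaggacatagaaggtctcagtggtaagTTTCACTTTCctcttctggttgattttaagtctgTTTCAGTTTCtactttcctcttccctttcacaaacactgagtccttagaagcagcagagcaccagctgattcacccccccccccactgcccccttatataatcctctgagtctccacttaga
Ifit2, chr19:34550444-34550693, plus strand: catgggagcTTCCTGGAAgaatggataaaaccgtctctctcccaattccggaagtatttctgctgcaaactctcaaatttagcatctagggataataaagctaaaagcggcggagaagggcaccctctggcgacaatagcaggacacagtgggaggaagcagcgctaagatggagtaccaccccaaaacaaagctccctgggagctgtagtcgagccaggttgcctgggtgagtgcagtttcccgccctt
Irf1, chr11:53769764-53770013, plus strand: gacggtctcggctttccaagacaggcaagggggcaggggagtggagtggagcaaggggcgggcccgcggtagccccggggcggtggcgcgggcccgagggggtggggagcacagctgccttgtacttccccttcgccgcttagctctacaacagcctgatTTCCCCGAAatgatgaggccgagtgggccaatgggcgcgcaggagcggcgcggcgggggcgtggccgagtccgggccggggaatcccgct
Ifit1, chr19:34640639-34640888, plus strand: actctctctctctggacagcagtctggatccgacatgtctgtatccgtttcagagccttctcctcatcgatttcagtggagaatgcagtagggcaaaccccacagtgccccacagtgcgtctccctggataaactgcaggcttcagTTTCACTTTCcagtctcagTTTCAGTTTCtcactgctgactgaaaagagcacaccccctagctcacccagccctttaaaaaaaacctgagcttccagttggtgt

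Both motifs were searched on both strands in windows of 300 bases (250 before and 50 after each listed start). The response-element core was present for 17 of the 33 listed genes with a promoter in the table (51.5%), against 3.99% of 27025 genes and 3.44% of 32851 promoters. TTCNNNGAA was present for 9 of the 33 (27.3%), against 9.55% of genes and 8.30% of promoters. The response-element core was found for 13 of 22 genes that fell, 2 of 7 that did not pass (Ifit1 and Oas3) and not for Irf1, which rose, whereas the GAS core was found for 5 of the 22, 3 of the 7 and Irf1. The rest of the 33 were not measured on the array: Isg15 and Oas1g had the response-element core only, and Ifi44 had neither motif. The motifs were counted separately and can overlap. Such letter patterns describe the window only, and a promoter without a match is one whose window lacks those letters.

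Most of these genes were lower without Aire. Averaged over the 3 strains, 25 of the 41 genes fell in the KO mice, with 16.6% of all genes called lower at an adjusted p below 0.05 (limma, Benjamini-Hochberg over 45037 probe sets). Only Irf1 rose, with 9.70% of all genes called higher. The median of the 41 differences was -0.43, against 0.01 over all genes, and 36 of the 41 were below 0, against 47.9% of all genes. A fall of 2-fold or more was seen in 9 of the 41 genes and in 3.57% of all genes.

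**Figure D1:**
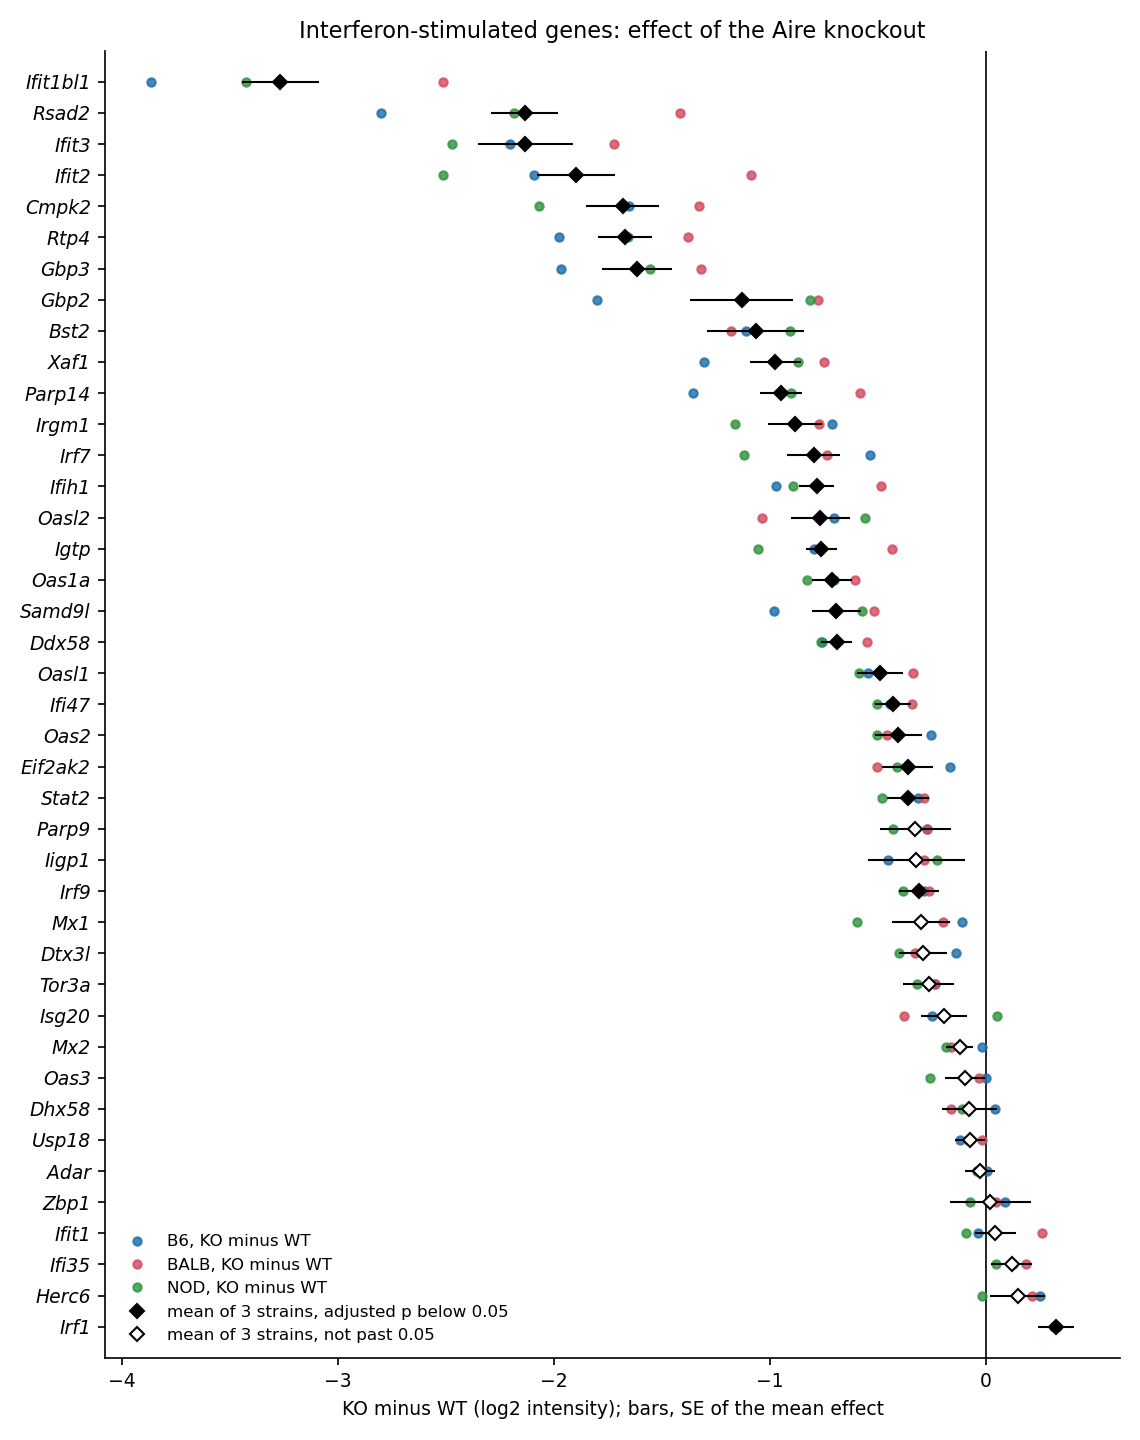
Difference between KO and WT mice (x axis, log2 intensity) for the 41 genes (y axis), with coloured points for the effect within B6, BALB and NOD and diamonds for the mean of the 3 strains with its SE, filled where the limma adjusted p was below 0.05. The points run from -3.86 for Ifit1bl1 in B6 to 0.33 for Irf1, and 36 of the 41 diamonds lie left of 0.

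The separation held mouse by mouse in 14 of the 41 genes: each of the 10 KO mice read below each WT mouse of its own strain (5.56% of all genes did so). No member had all KO mice above all WT mice (1.62% of all genes). Within each strain 15 of 41 genes fell in B6 (9.27% of all genes), 16 in BALB (7.48%) and 15 in NOD (4.70%), and none rose (3.19%, 2.89% and 1.88%). At an unadjusted p below 0.05, 1 gene, Irf1, was higher in each strain, 2.44% of the list against 9.48% of all genes in B6, 9.44% in BALB and 6.76% in NOD. The same 13 genes fell in all 3 strains, namely Ifit2, Ifit3, Ifit1bl1, Rsad2, Cmpk2, Oas1a, Ddx58, Ifih1, Gbp3, Igtp, Parp14, Xaf1 and Rtp4. The share of all genes that fell in all 3 strains was not counted, so this number has no background. With mice of the same number as a replicate block the counts were 31 on average, 25 in BALB and 27 in NOD, and with the block in BALB and NOD only 26, 21 and 22. The share of all genes called by these block fits was not counted, so the larger counts cannot be set against it. The 6 genes added to the averaged count by the block were Isg20, Mx1, Iigp1, Parp9, Dtx3l and Tor3a, and with the block in BALB and NOD only the 1 added was Dtx3l. The counts were 8 in BALB without BALB KO 3 and 9 without BALB KO 1, 2 in NOD without mice 2 and 3 of both genotypes, and 9 in B6 without its 3 arrays of lowest Gapdh 3′ to 5′ signal.

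The IFIT proteins bind viral RNA through tetratricopeptide repeats, and 3 of the 4 measured IFIT genes fell. Ifit1bl1 read 9.35, 9.91 and 9.54 in B6 WT mice and 5.91, 5.74 and 5.56 in B6 KO mice. In BALB its values were 9.01, 9.62, 8.18 and 8.53 in WT and 6.59, 6.17, 6.02 and 6.52 in KO mice. In NOD they were 8.33, 9.54 and 9.40 in WT and 5.53, 5.99 and 5.47 in KO mice. WT and KO mice did not overlap in any strain, and the gap between the lowest WT and the highest KO mouse was over 1 log2 unit in each. The averaged fall was -3.27 ± 0.18 (SE), 9.62-fold, the largest of the 41 genes (limma adjusted p = 3.58e-10). Ifit1bl1 resembles Ifit1 in sequence, and its probe set may read a related transcript in part.

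Ifit3, which binds the other IFIT proteins, read 8.98, 9.36 and 9.29 in B6 WT mice against 6.49, 7.50 and 7.04 in KO mice. In BALB it read 9.06, 9.71, 9.04 and 9.56 against 7.25, 8.37, 7.04 and 7.82. In NOD it read 8.76, 9.97 and 9.92 against 6.23, 7.35 and 7.65. The groups did not overlap in any strain, and the averaged fall was -2.13 ± 0.22 (adjusted p = 1.17e-06).

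Ifit2, an AU-rich RNA-binding member, read 8.36, 9.12 and 7.97 in B6 WT mice against 5.83, 6.69 and 6.66 in KO mice. Its BALB values were 8.84, 9.27, 8.38 and 8.17 against 7.16, 7.96, 7.28 and 7.92. Its NOD values were 8.33, 8.88 and 8.77 against 5.87, 6.21 and 6.36. Again every KO mouse was below every WT mouse of its strain, most narrowly in BALB, where WT 4 and KO 2 were 8.17 and 7.96. The averaged fall was -1.90 ± 0.18 (adjusted p = 4.20e-07). The Ifit2 window printed above holds no response-element core, and none was found in the window of its other listed start.

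Ifit1, which binds RNA lacking cap methylation, did not follow its neighbours. It read 10.52, 10.36 and 10.95 in B6 WT and 10.82, 10.20 and 10.72 in B6 KO mice. BALB mice read 10.12, 10.31, 10.49 and 10.77 against 10.65, 10.71, 10.58 and 10.78. In NOD it read 10.04, 9.92 and 9.87 against 9.92, 9.83 and 9.81. The groups overlapped in each strain, and the averaged difference was 0.04 ± 0.10 (adjusted p = 0.766), with 3 of 10 KO mice below all WT mice of their strain and 1 above. Its sign turned with the thymocyte markers, given further on, as a covariate (-0.03). The Ifit1 promoter printed above holds 2 copies of the response-element core, as does that of Ifit3. Differences between genes of the family were not tested against each other.

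Rsad2 encodes viperin, a radical SAM enzyme that makes a chain-terminating nucleotide, and Cmpk2, its neighbour on the chromosome, encodes a nucleotide kinase. Both fell. Rsad2 read 11.34, 10.73 and 10.81 in B6 WT mice and 8.29, 8.06 and 8.13 in KO mice. In BALB it read 11.30, 11.60, 11.36 and 11.88 against 9.70, 10.05, 9.84 and 10.88. In NOD it read 10.73, 11.75 and 11.44 against 8.88, 9.31 and 9.17. No KO mouse reached a WT mouse of its strain, with BALB KO 4 the closest. The averaged fall was -2.13 ± 0.15, 4.39-fold (adjusted p = 1.20e-08), and the other probe sets of Rsad2 gave -2.19 and -0.88.

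Cmpk2 read 9.36, 9.62 and 8.90 in B6 WT mice against 7.42, 7.74 and 7.77 in KO mice. In BALB the values were 8.69, 8.63, 9.41 and 9.65 against 7.40, 7.42, 7.82 and 8.43. In NOD they were 8.55, 9.45 and 9.33 against 6.90, 7.08 and 7.14. Groups were again apart in each strain, and the averaged fall was -1.68 ± 0.17 (adjusted p = 7.67e-07). A dim second probe set of Cmpk2, with a mean of 5.27, read 0.06, and the mean of both fell by 0.81.

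**Figure D2:**
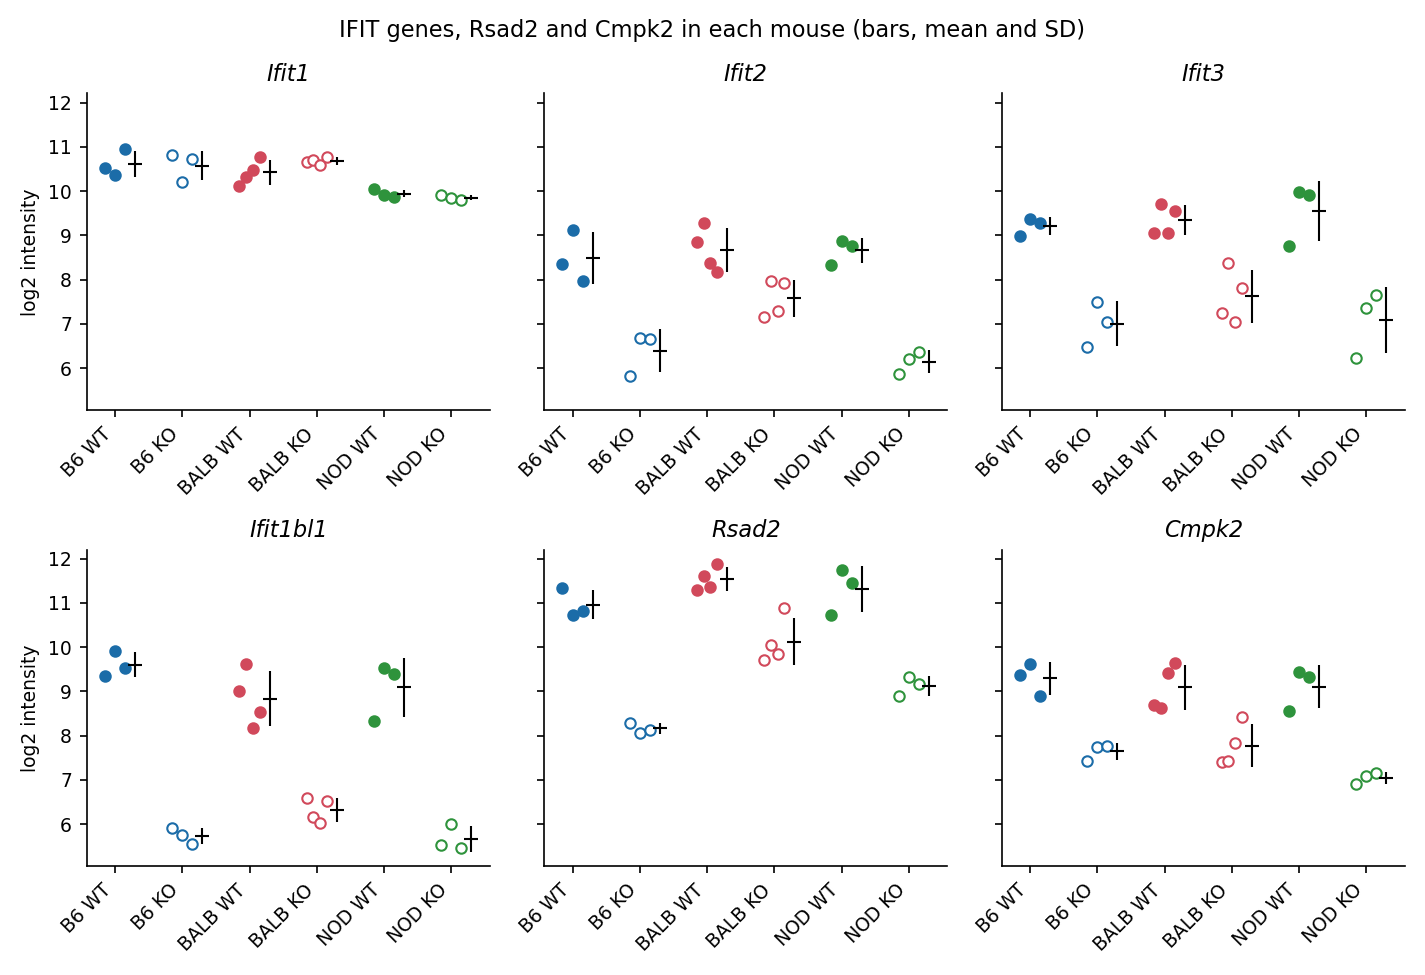
Level (y axis, log2 intensity) of the IFIT genes, Rsad2 and Cmpk2 in each mouse of the 6 groups (x axis), with bars for the mean and SD. KO mice lie below the WT mice of their strain for Ifit1bl1, Ifit3, Ifit2, Rsad2 and Cmpk2, while the groups overlap for Ifit1.

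The ISG15 system attaches a ubiquitin-like protein to targets, and none of its 3 measured genes, the exonuclease gene Isg20 counted with them, passed the test. Usp18, which removes ISG15 and restrains the interferon receptor, differed by -0.07 ± 0.07 (adjusted p = 0.488). Isg20 differed by -0.19 (adjusted p = 0.214). It passed with same-numbered mice as a block in all 3 strains (adjusted p = 0.0224) but not with the block in BALB and NOD only (0.117). Herc6, the mouse ligase for ISG15, read 8.79, 8.81 and 8.21 in B6 WT and 8.93, 8.83 and 8.80 in B6 KO mice. The BALB values were 9.35, 8.52, 8.54 and 9.07 against 9.47, 8.69, 9.08 and 9.07, and in NOD 8.54, 8.92 and 8.91 against 8.58, 8.71 and 9.02. The averaged difference of Herc6 was 0.15 ± 0.13 (adjusted p = 0.423). Its sign depended on the probe set: another passed the test at -0.45, and the mean over its probe sets was -0.11.

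The OAS enzymes make the 2′-5′ oligoadenylates that activate RNase L, and 4 of the 5 measured genes fell. Oas1a fell by 0.71 on the log2 scale in the mean of the strains, with all 10 KO mice below all WT mice of their strain, though its probe set may share sequence with the other Oas1 copies. Oasl2, an OAS-like protein with ubiquitin-like domains, read 10.95, 11.26 and 11.04 in B6 WT and 10.25, 10.51 and 10.39 in B6 KO mice. In BALB it read 9.52, 9.68, 10.004 and 10.50 against 8.39, 8.84, 8.80 and 9.53, and in NOD 10.26, 10.75 and 10.46 against 9.997, 9.86 and 9.95. Oasl2 fell by 0.77 on average (SE 0.13, adjusted p = 0.000435), and only BALB KO 4 overlapped the WT mice of its strain. Oasl1 fell by 0.49 and Oas2 by 0.40, while Oas3, next to Oas2 on the chromosome, differed by -0.10 and did not pass. The Mx GTPases did not pass either, with -0.30 for Mx1 (adjusted p = 0.124, or 0.0143 with same-numbered mice as a block) and -0.12 for Mx2 (adjusted p = 0.192).

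Among the transcription factors 3 fell and 1 rose. Irf7, the factor that amplifies interferon alpha transcription, read 7.80, 8.16 and 7.93 in B6 WT and 7.18, 7.70 and 7.41 in B6 KO mice. In the BALB groups the values were 8.41, 8.63, 8.51 and 8.61 against 7.63, 8.06, 7.43 and 8.09, and in NOD 7.86, 8.56 and 8.86 against 7.26, 7.14 and 7.53. All KO mice were below the WT mice of their strain, and the averaged fall was -0.80 ± 0.12 (adjusted p = 0.000102).

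Stat2, part of the factor that type I interferon activates, changed less. It read 6.75, 6.55 and 6.42 in B6 WT and 6.14, 6.35 and 6.29 in B6 KO mice. The BALB groups read 6.54, 6.64, 7.02 and 7.09 against 6.16, 6.43, 6.65 and 6.91, and its NOD values 6.61, 6.69 and 6.80 against 6.28, 6.05 and 6.32. The BALB groups overlapped and the others did not. Stat2 fell by 0.36 on average (SE 0.10, adjusted p = 0.0119) and did not pass without NOD mice 2 and 3 (-0.31, adjusted p = 0.226). The mean with its dim second probe set fell by 0.18 (adjusted p = 0.0332). Irf9, its DNA-binding partner, fell by 0.31 (adjusted p = 0.0264).

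Irf1, a factor that interferon gamma induces directly, went the other way. It read 11.39, 11.72 and 11.49 in B6 WT and 11.53, 12.10 and 11.92 in B6 KO mice. Its BALB values were 11.01, 11.10, 10.86 and 10.99 against 11.25, 11.51, 11.09 and 11.42, and its NOD values 11.08, 11.06 and 10.94 against 11.60, 11.34 and 11.13. The KO mouse was above all WT mice of its strain in 8 of 10 cases, and the rise was 0.32 ± 0.08 (adjusted p = 0.00949). Leaving out the 3 B6 arrays with the lowest Gapdh 3′ to 5′ signal gave 0.25 (adjusted p = 0.0727), and the thymocyte markers as a covariate gave 0.26 (adjusted p = 0.0755). The Irf1 promoter printed above holds TTCNNNGAA, 90 bases before the start, and no response-element core.

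Of 6 sensors and effectors that meet foreign nucleic acid, 3 fell. Ddx58, which encodes RIG-I, fell by 0.69 with all 10 KO mice below the WT mice of their strain (adjusted p = 1.17e-06). Ifih1, which encodes MDA5, fell by 0.78 (adjusted p = 1.46e-06). For Ifih1, 9 of 10 KO mice were below all WT mice of their strain, and all 10 same-numbered pairs were lower. Eif2ak2, the kinase PKR, fell by 0.36 (adjusted p = 0.0362), read by a dim probe set with a mean of 5.88. Its other probe sets were dimmer still and differed in sign, with 0.12 (adjusted p = 0.149) and -0.54 (adjusted p = 0.0455). Dhx58, another RIG-I-like receptor, differed by -0.08, the editing enzyme gene Adar by -0.03 and the Z-nucleic acid sensor Zbp1 by 0.02, and none of these passed.

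The guanylate-binding and immunity-related GTPases, which coat the vacuoles of intracellular pathogens, included 5 falls among 6 genes. Gbp3 fell by 1.61 (SE 0.16, adjusted p = 7.89e-07), Irgm1 by 0.88 and Ifi47 by 0.43, and in each all 10 KO mice were below the WT mice of their strain. Igtp read 10.37, 10.70 and 10.40 in B6 WT and 9.47, 9.80 and 9.82 in B6 KO mice. In BALB mice it stood at 10.45, 10.58, 10.66 and 10.87 against 10.15, 10.34, 10.02 and 10.31, and its NOD values 10.54, 10.53 and 10.48 against 9.58, 9.36 and 9.45. The BALB groups were the closest and still did not overlap. The averaged fall of Igtp was -0.76 ± 0.07 (adjusted p = 3.91e-07).

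Gbp2 varied widely between NOD mice. It read 9.22, 9.24 and 9.47 in B6 WT and 7.42, 7.50 and 7.62 in B6 KO mice. In BALB it read 8.43, 8.18, 8.51 and 8.49 against 7.47, 8.01, 7.27 and 7.77, and in NOD 9.08, 10.59 and 10.996 against 8.18, 9.996 and 10.05. NOD mice 2 and 3 were high in both genotypes, so that their KO mice read above NOD WT 1. Its SD of 1.01 in NOD WT and 1.07 in NOD KO was the highest of the 41 genes in those groups. Gbp2 fell by 1.13 (SE 0.24, adjusted p = 0.00213), and by 0.87 with the dendritic cell and macrophage markers as a covariate (adjusted p = 2.30e-04) and 0.63 with the thymocyte markers (adjusted p = 0.0166). Its probe set is of a type that can match related transcripts, and another gave -0.94.

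Iigp1 read 10.68, 11.21 and 10.35 in B6 WT and 9.74, 10.57 and 10.56 in B6 KO mice. Its BALB values were 10.28, 10.70, 10.68 and 10.44 against 9.78, 10.42, 10.15 and 10.62, and its NOD values 12.40, 11.13 and 10.91 against 12.25, 10.94 and 10.57. NOD mouse 1 was the highest of both NOD genotypes. The difference of -0.32 ± 0.22 did not pass (adjusted p = 0.322), but did with mice of the same number as a block in all 3 strains (adjusted p = 0.0224; 0.0912 with the block in BALB and NOD only) and with the thymocyte markers as a covariate (-0.79, adjusted p = 0.00186).

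Parp14, Parp9 and Dtx3l lie side by side, and Parp9 and Dtx3l proteins act as a ubiquitin ligase complex. Of the 3, Parp14 fell. It read 10.72, 10.55 and 10.76 in B6 WT and 9.40, 9.41 and 9.15 in B6 KO mice. BALB values were 10.85, 11.20, 11.001 and 11.35 against 10.11, 10.68, 10.40 and 10.89, and its NOD values 10.77, 11.16 and 11.08 against 10.21, 9.94 and 10.16. Only BALB KO 4 overlapped the WT mice of its strain, and the averaged fall was -0.95 ± 0.10 (adjusted p = 9.64e-07), or -0.54 as the mean with a dimmer probe set that read -0.14. Parp9 differed by -0.33 (adjusted p = 0.171) and Dtx3l by -0.29 (adjusted p = 0.0716), and another Dtx3l probe set passed at -0.45. With same-numbered mice as a replicate block both passed (Parp9 adjusted p = 0.00106, lower in 10 of 10 pairs; Dtx3l adjusted p = 5.88e-04, lower in 9 of 10), and with the block in BALB and NOD only Dtx3l did (adjusted p = 0.0299) and Parp9 did not (0.116).

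Of 6 further interferon-stimulated genes 4 fell. Rtp4, a chaperone of G protein-coupled receptors, read 9.10, 9.02 and 9.07 in B6 WT and 7.08, 7.02 and 7.17 in B6 KO mice. Its BALB values were 9.97, 10.23, 10.10 and 10.43 against 8.25, 9.26, 8.59 and 9.13, and its NOD values 9.08, 9.59 and 9.55 against 7.56, 7.52 and 8.17. All groups were apart, and the B6 mice of each genotype lay within 0.2 of each other. Rtp4 fell by 1.67 on average (SE 0.12, adjusted p = 1.86e-08), and by 1.01 as the mean with a dim probe set that read -0.35.

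Bst2, which encodes the virus tether tetherin, fell by 1.06 (adjusted p = 0.00203), Xaf1 by 0.97 and Samd9l by 0.69. KO mice below all WT mice of their strain numbered 8 of 10 for Bst2, 10 of 10 for Xaf1 and 9 of 10 for Samd9l. For each of these genes the KO mouse was lower in all 10 same-numbered pairs. Tor3a differed by -0.26 (adjusted p = 0.123) and passed with the block in all 3 strains (adjusted p = 0.00728) but not with the block in BALB and NOD only (0.0852). Ifi35 read 11.38, 11.33 and 11.87 in B6 WT and 11.70, 11.55 and 11.71 in B6 KO mice. BALB WT and KO mice read 11.29, 11.32, 11.78 and 11.05 against 11.66, 11.62, 11.60 and 11.31, and in NOD 11.75, 11.56 and 11.85 against 11.77, 11.59 and 11.93. The groups overlapped in each strain (0.12 ± 0.09, adjusted p = 0.381).

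The other probe sets of these genes gave a mixed picture. There were 26, belonging to 17 genes. Of the 12 that belonged to genes that passed, 5 passed with the same sign and 7 did not pass, among them dim ones of Ddx58, Xaf1 and Stat2. Of the 14 that belonged to genes that did not pass, 2 passed lower (Dtx3l and Herc6) and 1 higher (Adar, 0.34).

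Whether the effect of Aire differed between strains was tested by an F test that compares the KO effect of the 3 strains, and 0 of 41 genes passed in limma (0.660% of all genes passed). In pairs of strains 0 of 41 genes differed either way, with 0.231% of all genes called higher and 0.0879% lower for BALB minus B6, 0.176% and 0.0934% for NOD minus B6, and 0.203% and 0.143% for NOD minus BALB. At an unadjusted p below 0.05, 6 of the 41 genes did, namely Ifit2, Ifit1bl1, Rsad2, Ifih1, Igtp and Parp14, against 7.22% of all genes. The smallest adjusted p was that of Rsad2 (0.347). Its effect was -2.80 in B6, -1.42 in BALB and -2.18 in NOD, and the difference between BALB and B6 was 1.38 ± 0.37 (adjusted p = 0.231). With mice of the same number as a replicate block the F test passed for Rsad2 (adjusted p = 0.00283) and Gbp2, and with the block in BALB and NOD only, where the numbers behave as pairs, for Rsad2 (adjusted p = 0.0276). The effect in BALB was the smallest of the 3 strains in 19 of the 25 genes that fell, an order that was not tested over the list. How often BALB was the smallest among all genes that fell was not counted, so the order cannot be called particular to the list.

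WT mice of the 3 strains differed in 6 of 41 genes by an F test, a share close to the 14.2% of all genes. These were Rtp4, Oasl2, Gbp2, Irf1, Ifit1 and Ddx58. Rtp4 was higher in BALB WT (10.18) than in B6 WT mice (9.06) and NOD WT mice (9.41), with no overlap between BALB and either. Oasl2 ran from 9.93 in BALB through 10.49 in NOD to 11.09 in B6 WT mice, and only the BALB and B6 means differed past the threshold (-1.16 ± 0.23, adjusted p = 0.00439). Gbp2 was 1.82 ± 0.40 higher in NOD than in BALB WT mice (adjusted p = 0.00973), and B6, at 9.31, did not differ from either past the threshold. Ifit1 was lower in NOD than in B6 WT mice by 0.67 (difference -0.67 ± 0.17, adjusted p = 0.0246). Iigp1, of which NOD WT 1 was the highest WT mouse, did not pass, but another Iigp1 probe set was 2.02 ± 0.39 higher in NOD than in BALB WT mice (adjusted p = 0.00343). In pairs of strains, 3 genes were higher and 2 lower in BALB than in B6 WT mice (2.46% and 4.58% of all genes), 0 and 1 in NOD than in B6 (2.40% and 6.30%), and 1 and 1 in NOD than in BALB (3.03% and 5.25%). The F test called 3 genes without B6 WT 3, 11 with the Gapdh 3′ to 5′ signal and 10 with the dendritic cell and macrophage markers as a covariate. The share of all genes was not counted in these fits.

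Among KO mice 15 of 41 genes differed between strains, with 21.7% of all genes called. BALB KO mice were higher than B6 KO mice in 9 genes (6.43% of all genes) and lower in 3 (7.73%). The 9 were Rsad2, Rtp4, Gbp3, Parp14, Ifit2, Xaf1, Samd9l, Ddx58 and Igtp, and all 9 are among the genes that fell in the averaged comparison. Rsad2 averaged 8.16 in B6 KO, 9.12 in NOD KO and 10.12 in BALB KO mice, and each neighbouring pair differed past the threshold. The difference of 1.96 ± 0.26 between BALB and B6 KO mice (adjusted p = 8.71e-05) compares with 0.57 ± 0.26 between the WT mice of these strains (adjusted p = 0.236). These comparisons use the KO mice that also enter the KO effects above.

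Rtp4 differed between BALB and B6 by 1.72 ± 0.21 in KO mice (adjusted p = 3.71e-05) and by 1.12 ± 0.21 in WT mice (adjusted p = 0.00319). Parp14 differed by 1.20 ± 0.16 in KO mice (adjusted p = 0.000102) and by 0.43 ± 0.16 in WT mice (adjusted p = 0.147). Oasl2 ran the other way in both genotypes, with BALB lower than B6 in KO mice (difference -1.496 ± 0.23, adjusted p = 0.000338). NOD KO mice were lower than BALB KO mice in 8 genes (6.65% of all genes) and higher in 2 (4.67%), and relative to B6 KO mice 4 genes were higher (4.90%) and 2 lower (7.13%).

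**Figure D3:**
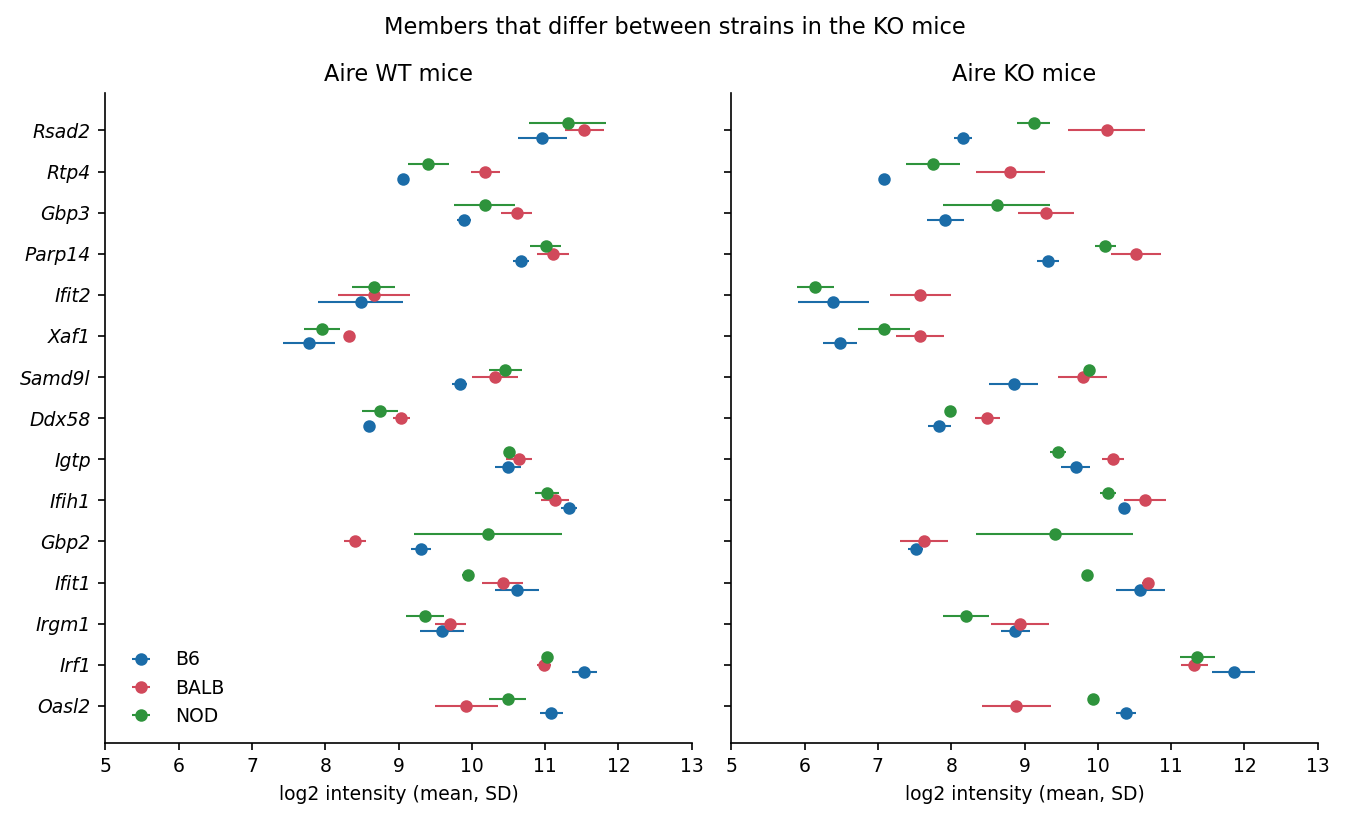
Mean and SD of the level (x axis, log2 intensity) in WT mice (left) and KO mice (right) of B6, BALB and NOD for the 15 genes (y axis) that differed between strains among KO mice. In KO mice Rsad2 runs from 8.16 in B6 to 10.12 in BALB, while its WT means lie between 10.96 and 11.53.

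Individual mice differed in the level of the list as a whole. The mean deviation of the 41 genes from their means over all arrays was 0.19, 0.45 and 0.23 in B6 WT and -0.62, -0.36 and -0.43 in B6 KO mice. In BALB it was 0.29, 0.40, 0.27 and 0.43 in WT and -0.34, -0.04, -0.38 and -0.04 in KO mice, and in NOD 0.13, 0.50 and 0.49 in WT and -0.48, -0.40 and -0.30 in KO mice. No KO mouse reached the WT mice of any strain. BALB KO 2 and BALB KO 4 were the highest KO mice, and NOD WT 1, the lowest WT mouse, was the lowest of its group in 31 of the 41 genes. The median SD between mice of a group was above that of all genes in each group, from 0.219 against 0.208 in BALB WT to 0.249 against 0.143 in NOD WT mice, where 35 of 41 genes exceeded the median of all genes. The median level of the list was also above that of all genes (9.26 against 7.33 in BALB WT, 9.29 against 7.32 in NOD WT mice). SDs were not compared at equal level.

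Markers of other cells moved with some of these differences. The mean of 11 dendritic cell and macrophage markers was 7.66 to 7.999 in B6 WT and 7.33 to 7.59 in B6 KO mice, 7.40 to 7.95 in BALB WT and 7.17 to 8.15 in BALB KO mice. The WT and KO mice of B6 did not overlap in this mean, and those of BALB did. It was 7.45, 8.37 and 9.08 in NOD WT and 7.29, 8.02 and 8.59 in NOD KO mice, lowest in NOD WT 1 among the NOD WT mice, as was the list. Set against the WT mouse of its strain and number, every KO mouse had a lower mean except BALB KO 4 (8.15 against 7.90). Of the 11 markers 1 was lower and 1 higher in KO mice past the threshold, where 16.6% and 9.70% of all genes were. The mean of 5 markers of plasmacytoid dendritic cells, a known source of type I interferon, reached 8.05 in NOD WT and 7.70 in NOD KO mice and was 6.16 to 6.75 in B6 and BALB mice, and 0 of the 5 passed (Siglech, their defining gene, read 6.80 to 8.45). The mean of 9 thymocyte markers was lower in the KO mouse of all 10 same-numbered pairs. It was 6.99 to 7.10 in B6 WT and 6.76 to 6.93 in B6 KO mice, without overlap, 6.91 to 7.24 and 6.69 to 7.03 in BALB, and 6.97 to 7.85 and 6.67 to 7.48 in NOD. Of the 9, Cd3g and Dntt fell past the threshold. With this mean as a covariate, an alternative chosen after seeing the data, 24 of the 41 genes were lower in KO mice, 23 of them among the 25, none was higher, and Ifit1bl1 and Rsad2 fell by 2.995 and 1.98. With the dendritic cell and macrophage mean as a covariate, 24 of the 41 genes were lower in KO mice, and Ifit1bl1 and Rsad2 fell by 3.15 and 2.03. The share of all genes called was not counted in either covariate fit. In bulk sorted cells, fewer cells that express a gene and less RNA per cell cannot be told apart.

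**Figure D4:**
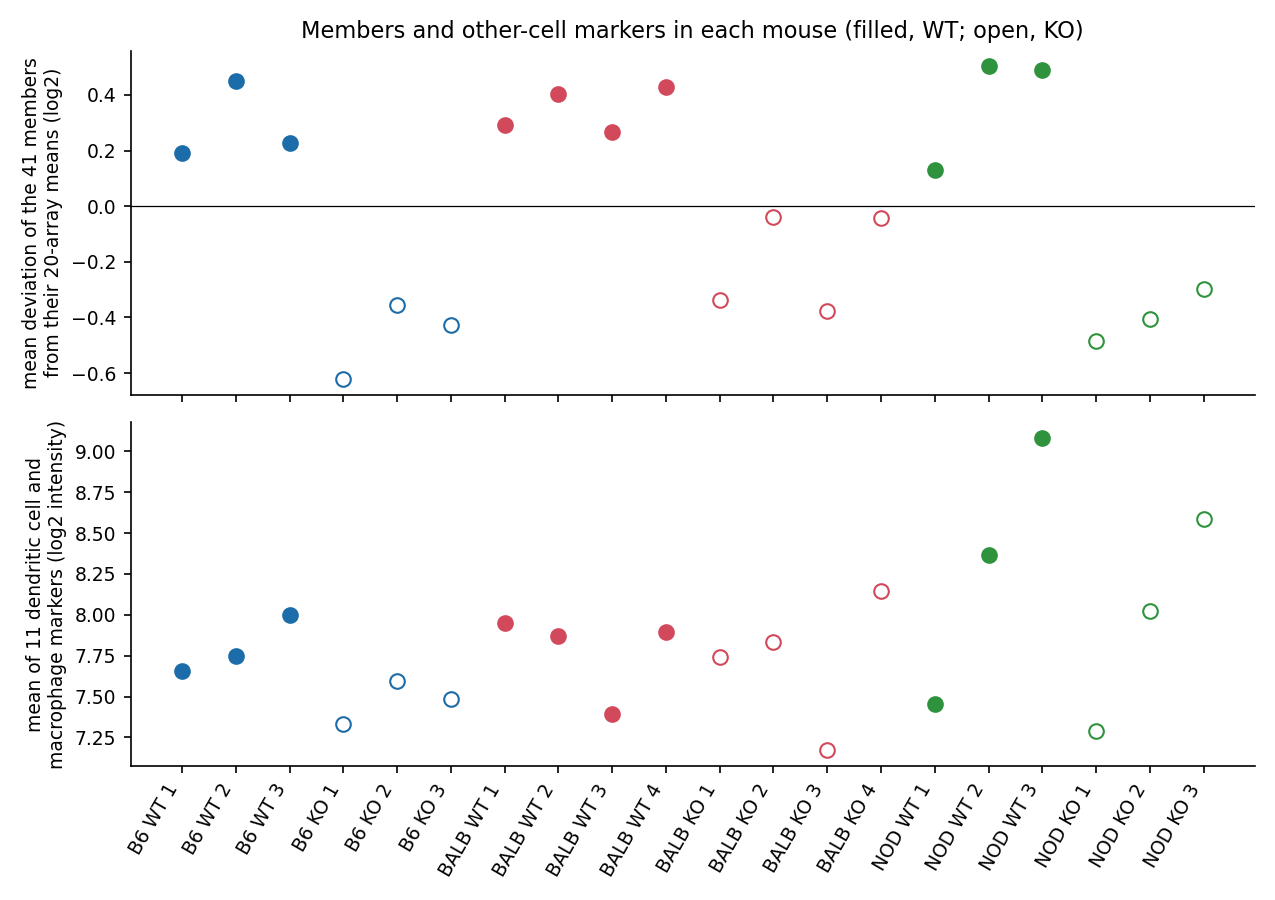
Mean deviation of the 41 genes (upper panel, log2) and mean of 11 dendritic cell and macrophage markers (lower panel, log2 intensity) in each mouse (x axis), filled for WT and open for KO. All WT mice lie above 0 and all KO mice below 0 in the upper panel, while the marker means of WT and KO mice overlap in BALB and NOD. BALB KO 4 is the only KO mouse whose marker mean lies above that of the WT mouse of its strain and number.

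The labels carry sample codes that form 4 runs of near-consecutive numbers, and in 5 cases WT and KO mice of 1 strain share a run. Between 33 and 39 of the 41 genes were below 0 in these cases, and the median of the 41 ran from -0.33 (NOD, 1 mouse against 1) to -0.69 (NOD, 2 against 2). The median over all genes lay between -0.011 and 0.015 in the same cases. The share of all genes below 0 was not counted there.

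Genes around the pathway were taken from lists. Their counts are to be read against the 16.6% of all genes called lower and the 9.70% called higher in the averaged comparison. Of 10 measured interferon ligands 1 fell, below that share. Ifng, which encodes interferon gamma, read 9.34, 8.22 and 9.49 in B6 WT and 9.31, 7.27 and 8.01 in B6 KO mice, and 6.19, 7.23 and 7.64 in NOD WT against 5.82, 5.43 and 5.44 in NOD KO mice. For BALB the values were 9.23, 8.79, 7.74 and 9.09 against 7.37, 7.43, 7.99 and 7.79. Ifng fell by 1.11 (SE 0.27, adjusted p = 0.00565) with 7 of 10 KO mice below the WT mice of their strain. Ifnb1, the gene of interferon beta, read 5.93 to 6.72 over all 20 mice, and its difference of -0.17 did not pass (adjusted p = 0.178).

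Of 6 interferon receptor chains 1 fell, a share near that of all genes. Ifnar2, a chain of the type I receptor, fell by 0.36 (adjusted p = 0.0431), while Ifnar1 differed by 0.28 (adjusted p = 0.265) and Ifnlr1, of the type III receptor, by 0.00 (adjusted p = 0.973). Among 9 measured JAK-STAT genes 2 rose and none fell. Stat3 rose by 0.60 (adjusted p = 0.00102) and the inhibitor Socs1 by 0.26 (adjusted p = 0.0356). Of 5 IRF factors outside the 44 genes, 4 rose, among them Irf8 by 0.92 (adjusted p = 0.00122) and Irf5 by 0.41 (adjusted p = 0.0054). Irf8 is also known from dendritic cells and B cells, and their part in its rise was not tested.

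Sensors upstream of interferon held 1 fall and 1 rise among 10 genes, the first below and the second near the share of all genes. Trim25, the ligase that activates RIG-I, fell by 1.01 (adjusted p = 1.06e-05), and the adaptor Ticam1 rose by 0.21 (adjusted p = 0.0333). Of 12 targets of interferon gamma 2 fell and 1 rose, shares near those of all genes, with a median of 0.04 against 0.01. Ido1, which degrades tryptophan, read 8.37, 8.99 and 8.23 in B6 WT and 6.30, 6.27 and 6.71 in B6 KO mice and fell by 1.64 on average in 10 of 10 KO mice (adjusted p = 1.76e-06). Cxcl9, a chemokine for T cells, fell by 0.95 in 10 of 10 (adjusted p = 7.19e-06), whereas Cxcl10 differed by 0.31 and did not pass (adjusted p = 0.222). The rise was that of Socs1, which both lists hold.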

How the data were processed

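Per the labels, total RNA of sorted cells was amplified in 2 rounds and hybridised to Affymetrix arrays, 1 array per mouse. The deposited table holds 1 linear intensity per probe set and array, made with RMA per the submitters' processing notes. Its version, its settings and the set of arrays normalized together are not stated in these sources. RMA evens out shifts of a whole array, and a 3′ bias of amplification can remain. No detection calls were used.

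Groups came from sample titles. After log2, 45037 of 45101 probe sets (64 controls left out) were fitted in R 4.3.3 with limma 3.58.1 over all 20 arrays (6 group means, eBayes, 14 residual degrees of freedom), with Benjamini-Hochberg adjustment over all of them and a threshold of 0.05. The annotation gave 1 symbol for 34945 probe sets, several for 932 and none listed for 9160. The median averaged contrast over all probe sets was 0.06. Precision is limited by the number of arrays. The code was tested on simulated data.

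The list of genes, the roles and the pathway and marker lists were chosen with earlier results of these data known. Values in every mouse are given for genes chosen by role (Rsad2, Ifit1, Ifit2, Ifit3, Irf7, Stat2), the 6 largest falls, the 3 largest rises, the 4 smallest p of the strain test and the 4 widest WT ranges, and other genes are named to account for the list.

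Same-numbered WT and KO mice deviated together in BALB (r 0.46 to 0.66 over probe sets) and NOD (0.31 to 0.67), taken as pairs, but not in all of B6 (0.78, 0.72 and -0.13). Alternatives changed the scaling, a filter on dim probe sets, a pseudocount of 16, the variance model, array weights, blocks, covariates, the probe set used, the arrays fitted and the mice. Promoters and start sites are RefSeq's on GRCm38.p6.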

Additional observations from a re-analysis of the deposited data

Results flagged for a closer look

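In each BALB group of 4 mice, the gap between the highest or lowest mouse and its nearest neighbour was compared with the range of the group for every gene of the list. Among 82 such groups 3 exceeded Dixon's 95% critical value for 4 samples, and chance alone is known to pass it in about 1 in 20 groups, here 4.1. Oas2 read 7.499 in BALB KO 4 and 6.90 to 7.003 in the other BALB KO mice. Gbp3 read 9.87 in BALB KO 2 and 9.06 to 9.12 in the others. Ifi35 read 11.31 in BALB KO 4 and 11.60 to 11.66 in the others.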

How the results depend on the processing

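The count of 25 genes lower on average stayed between 23 and 25 when any 1 mouse was left out. The count in B6 (15) ran from 14 to 17, in BALB (16) from 8 without BALB KO 3 to 18 (9 without BALB KO 1), in NOD (15) from 14 to 17, that of WT strain differences (6) from 3 without B6 WT 3 to 6, of KO strain differences (15) from 12 to 16, and the strain test of the KO effect stayed at 0. With the replicate block for same-numbered mice the counts were 25 in BALB, 27 in NOD and 2 for the strain test, and with the block in BALB and NOD only the strain test gave 1. Among the averaged effects of the 17 genes with values in every mouse, the block changed the call of Iigp1 only, and in the strain test it added Rsad2 and Gbp2. With array weights the counts were 28 in NOD, 2 for the strain test (Ifit2 and Igtp), 11 for WT strains and 28 for KO strains. WT strain differences numbered 11 with the Gapdh 3′ to 5′ signal as a covariate and 10 with the dendritic cell and macrophage markers. The share of all genes called was not counted for any alternative in this section.

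Chosen after seeing the data, leaving out the 3 B6 arrays with the lowest Gapdh 3′ to 5′ signal (WT 2, KO 2 and KO 3) gave 9 genes lower in B6 and 24 on average. Leaving out NOD mice 2 and 3 of both genotypes gave 2 in NOD and 19 on average, with the lone mouse of each NOD group assumed to vary like the other groups. The sign of Ifit1 turned with the run of sample codes as a block (-0.0096) and with the thymocyte markers as a covariate (-0.0326) and that of Herc6 with the mean of its probe sets (-0.11), and neither passed. For the 17 genes with values in every mouse, 604 of 612 values kept their direction and their side of the threshold. Besides the 3 turned signs, 5 values of Iigp1, Irf1 and Stat2 changed their side of the threshold. Where counts moved, the cause was not tested. Fits that leave mice out also hold fewer mice, and the 2 cannot be told apart from which mice were left out.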

Other observations

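A further list of genes known to be induced by interferon, outside the 44, also held falls. Of its 41 measured genes 16 fell in the KO mice averaged over strains and 0 rose (limma with Benjamini-Hochberg adjustment), where 16.6% of all genes were called lower and 9.70% higher. The median was -0.22, against 0.01 over all genes. Ifitm1, a membrane protein that blocks virus entry, read 9.61, 8.79 and 9.78 in B6 WT and 7.47, 6.84 and 7.04 in B6 KO mice. In BALB it read 9.75, 10.11, 10.69 and 11.06 against 8.06, 8.18, 7.99 and 7.85, and in NOD 9.04, 9.77 and 9.91 against 7.05, 7.31 and 7.47. The groups did not overlap, and Ifitm1 fell by 2.32 (SE 0.17, adjusted p = 1.42e-08). Parp12, an ADP-ribosyltransferase, averaged 9.37 in B6 WT and 7.72 in B6 KO mice, 9.66 and 8.64 in BALB, and 9.37 and 8.05 in NOD. It fell by 1.33 with 10 of 10 KO mice below the WT mice of their strain (adjusted p = 4.42e-06).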
